A study of Mus musculus with 31 samples.

Results

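Integrins are receptors made of 1 alpha and 1 beta subunit that tie cells to the extracellular matrix or to other cells, and laminins are trimers of 1 alpha, 1 beta and 1 gamma chain that form the polymer sheet of basement membranes. Tubules, glomeruli and collecting ducts of the kidney all rest on laminin, and epithelial cells hold it through laminin-binding integrins, whereas another set of integrins is made by white blood cells. Mutations in several of these genes cause kidney or skin disease, and altered basement membrane is a known feature of cystic kidneys. The genes described here are the 36 integrin and laminin subunits found by symbol (Itga and Itgb genes, and Lama, Lamb and Lamc genes) that had at least 10 counts in at least 5 mice, of 23509 genes in the files. Of these, 25 are integrin subunits and 11 are laminin chains, and all 36 were among the 15185 genes tested. A single further symbol matched, the collagen receptor subunit Itga2, which reached 10 counts in only 3 mice and was not tested.

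Kidney RNA was sequenced from 31 mice in 3 groups. The Pcy/CD1 strain carries a recessive germline mutation and develops slowly growing kidney cysts. From 5 weeks of age, 12 Pcy/CD1 mice received subcutaneous PBS and 14 received RGLS4326 at 25 mg kg−1, a short oligonucleotide inhibitor of miR-17, and kidneys were taken at 30 weeks. RGLS4326 was given monthly. For PBS the sources differ: the protocol text in the labels reads monthly, whereas the label of each PBS mouse and the study's account of the experiment read weekly, so injection schedule may differ between the treatment groups and cannot be told apart from the drug. The 5 wild-type (WT/CD1) mice were untreated males of the same age, so the WT comparisons differ in injection as well as genotype; the study describes its Pcy/CD1 mice as male too. Whole kidneys were used, so more cells of a type and more RNA per cell cannot be told apart in any result that follows.

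Each mouse had 14892524 to 27459962 counts on genes, with group medians of 20562148 for PBS, 19898000.5 for RGLS4326 and 19961466 for WT. Expression is given as CPM, the counts of a gene divided by the scaled library total. A list of 6 genes that mark kidney, such as Umod and Lrp2, was detected in every group with none at 0. The library of RGLS4326 mouse 9 stood apart from its group and lay near WT for many genes. Its 4 leukocyte markers summed to 40.3 CPM and its 7 markers of injured or ductal epithelium to 317 CPM, the lowest sums of that group, and its 6 proximal tubule markers summed to 14254 CPM, the highest. Results are therefore also given without it where it matters.

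Most of the subunits were higher in cystic than in WT kidneys, with the leukocyte subunits Itgam and Itgb7 and the laminin receptor subunit Itgb4 showing the largest rises among members with at least 10 counts in a WT mouse, and Itgb8, Itgav, Itga8 and the laminin chain Lamc3 the falls. With edgeR (quasi-likelihood test, p adjusted over all genes by Benjamini-Hochberg) a gene counted as called below an adjusted p of 0.05 and beyond a log2 fold change of 0.5 in size. On that rule 24 of 36 members were called between PBS and WT, 20 higher and 4 lower. Itgad and Itga11, both called higher, met the minimum of 10 counts only in Pcy/CD1 mice, so their selection favoured a rise; without these 2, 22 of 34 were called, 18 higher and 4 lower. Over all genes tested 42.4% were called, 24.6% higher and 17.8% lower. On adjusted p alone, 26 members were higher (24 without those 2) and 6 lower, where 74.3% of all genes passed, 37.7% higher and 36.6% lower. The median log2 fold change was 0.64 over the members, 0.59 over the 34, and 0.01 over all genes. The CPM ranges of the PBS and WT mice did not overlap for 19 of 36 members and 18 of the 34, against 42.2% of all genes. In RGLS4326-treated against WT mice 19 members were called, 15 higher and 4 lower, and without Itgad and Itga11 it was 17 of 34, 13 higher and 4 lower, against a background of 31.5% (20.3% higher and 11.3% lower). On adjusted p alone 25 members were higher (23 without those 2) and 6 lower, against 64.9% of all genes (32.5% and 32.4%). The ranges of 5 members, Itga5, Itgav, Itgb8 and Lama4 among them, did not overlap WT, against 14.8% of all genes.

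**Figure D1:**
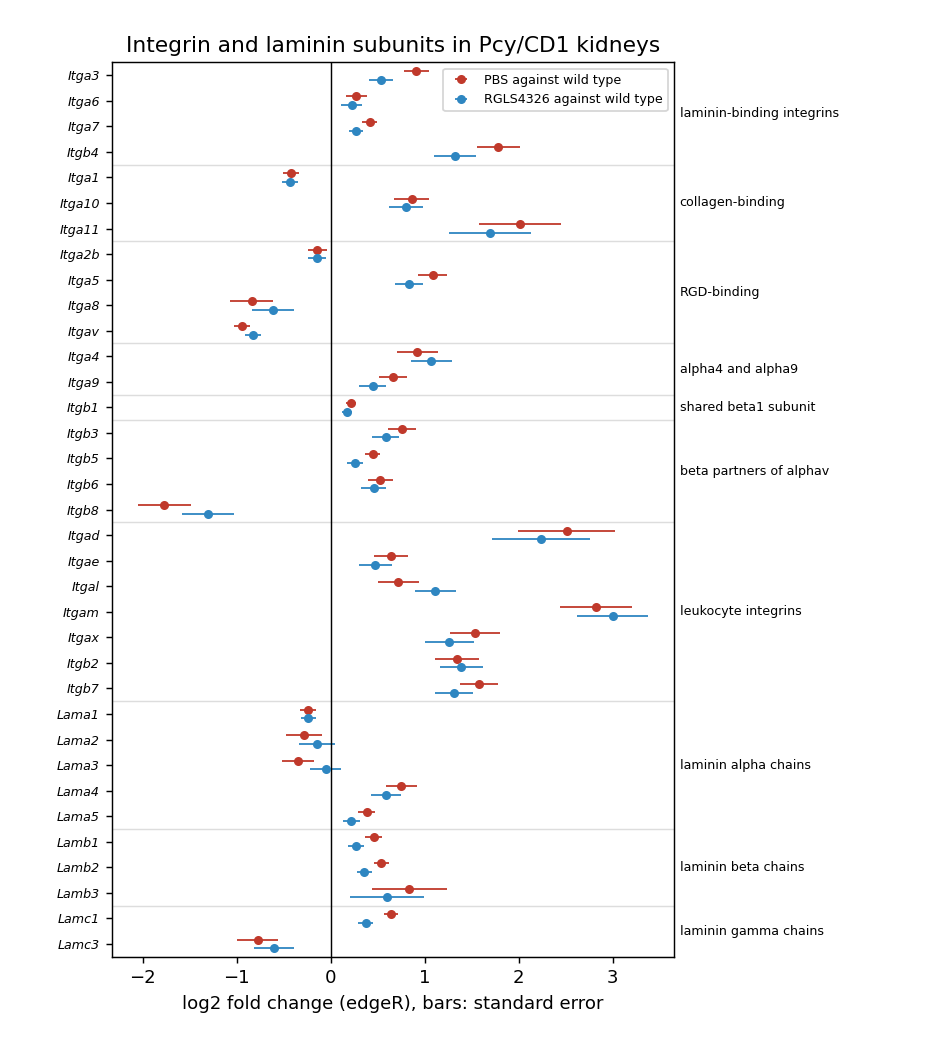
Log2 fold change of the subunits against WT (x axis) for PBS-treated (red) and RGLS4326-treated (blue) Pcy/CD1 mice, grouped by role (right); bars are standard errors of the edgeR fit. Itgam, Itgad and Itga11 lie farthest to the right, at 2.83, 2.51 and 2.01 in PBS, the last 2 of them genes with under 10 counts in every WT mouse, and Itgb8 lies farthest to the left at −1.77 in PBS and −1.30 in RGLS4326.

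The treatment differences were small. Between RGLS4326 and PBS, 0 of 36 members passed both thresholds by edgeR, and 0 did by DESeq2, against 2.15% of all genes by edgeR, 0.935% higher and 1.22% lower. On edgeR's adjusted p alone 7 members were lower and 0 higher, where 6.66% of all genes were lower and 9.15% higher, 15.8% in all. DESeq2 gave 8 lower, with Itga7 added (adjusted p = 0.0464), and 1 higher, Itgal. At an unadjusted p in edgeR under 0.05, 12 members were lower and 3 higher, where 5595 of the 15185 genes tested passed in either direction. The DESeq2 counts were not set against all genes. Among the 7 were the laminin receptor subunits Itga3 and Itgb4, the alpha v partner Itgb5, and the laminin chains Lamb1, Lamb2 and Lamc1. The log2 fold change was negative for 25 of 36 members, with a median of −0.15 against 0.00 over all genes. No member had ranges that did not overlap, and neither did any other gene tested (0.0%). The comparisons with PBS and with WT share the 12 PBS mice, so the values of the 2 contrasts are given side by side and are not independent.

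Levels were compared between genes as CPM per kb of exon. In WT kidneys the shared subunit Itgb1, the beta chain that pairs with most laminin- and collagen-binding alpha subunits, stood highest at 71.6 CPM per kb, followed by Itgb5 at 34.3, Itgav at 23.3, Lamb1 at 20.8 and Lama5 at 19.6. The lowest were the leukocyte subunit Itgad at 0.0185 and Itga11 at 0.0302. Itgb1 was 292 ± 12.6 CPM (SD, n = 5) in WT, 340 ± 23.1 (n = 12) in PBS and 330 ± 21.9 (n = 14) in RGLS4326. Its log2 fold change of 0.22 ± 0.05 (SE) between PBS and WT passed the adjusted p (6.25e-04, edgeR) and not the fold threshold, so the most abundant receptor chain differed little between groups.

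All 4 laminin-binding integrin subunits were higher in PBS than in WT on adjusted p, where 37.7% of all genes were. Itgb4 and Itga3 passed both thresholds, where 24.6% of all genes were called higher. Itgb4 pairs with Itga6 in the hemidesmosome, the junction that links keratin filaments to laminin. The gene is encoded on chromosome 11 (chr11:115974709-116008412, plus strand, GRCm38). WT mice 1 to 5 gave 8.49, 10.6, 9.11, 8.66 and 11.3 CPM. PBS mice ranged from 22.2 through a median of 30.6 to 47.8, and RGLS4326 mice from 11.1 through 24.8 to 33.6. Every PBS mouse lay above every WT mouse, and of the RGLS4326 mice only mouse 9, at 11.1 CPM, lay within the WT range. It rose by 1.79 ± 0.23 (log2) between PBS and WT (adjusted p = 1.10e-07, edgeR) and differed by −0.46 ± 0.15 between RGLS4326 and PBS (adjusted p = 0.0400).

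Itga3, on the minus strand of chromosome 11 (chr11:95044474-95076801), encodes the alpha chain of the main laminin receptor of podocytes and tubule cells. WT mice 1 to 5 gave 50.6, 64.2, 56.4, 50.9 and 67.4 CPM. PBS mice ranged from 81.9 through 113 to 143, and RGLS4326 mice from 66.3 through 85.2 to 108. All 14 RGLS4326 mice lay below the PBS median, and 2 of them fell within the WT range, whereas no PBS mouse did. Its log2 fold change was 0.91 ± 0.13 for PBS against WT (adjusted p = 5.54e-07, edgeR) and −0.38 ± 0.09 for RGLS4326 against PBS (adjusted p = 0.0141). Itga6, the other main laminin-binding alpha chain, and Itga7, best known from muscle, moved less, with log2 fold changes of 0.27 ± 0.11 and 0.42 ± 0.08 against WT and of −0.05 and −0.15 between treatments, where both missed the adjusted p (0.674 and 0.0587, edgeR). Among the 3 laminin-binding alpha chains, the share of Itga3 per kb was 44.2% in WT, 54.4% in PBS and 49.6% in RGLS4326, and that of Itga6 was 46.6%, 37.5% and 41.8%.

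By median log2 fold change, markers of injured or ductal epithelium and of the collecting duct moved in the same direction as these receptors. Proximal tubule and thick ascending limb markers moved the other way. The markers of injured or ductal epithelium were Lcn2, Havcr1 and 5 keratins. Krt20 had under 10 counts in every WT mouse, and the other 6 were all called higher in PBS than in WT. The sum of the 7 markers ranged from 253 to 302 CPM in WT, 697 to 2227 in PBS and 317 to 1462 in RGLS4326, and 1 of 7 was lower in RGLS4326 than in PBS on adjusted p. Of the 4 collecting duct markers 3 were called higher in PBS than in WT, where 24.6% of all genes were. On adjusted p 3 were lower in RGLS4326 than in PBS, where 6.66% of all genes were. The sums of the 4 were 405 to 737 CPM in WT, 1034 to 2418 in PBS and 686 to 1626 in RGLS4326. The part of both lists in the values of Itga3, Itgb4 and the laminin chains was not tested.

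Among the collagen receptors, the scarce Itga10 rose, the abundant Itga1 did not, and Itga11 was too scarce in WT to be read as a rise. Itga11, a fibroblast receptor for fibrillar collagen, read 0.118, 0.475, 0, 0 and 0.181 CPM in the WT mice, 0.299 through 0.622 to 1.15 in PBS and 0.256 through 0.528 to 0.879 in RGLS4326. The groups overlapped, no WT mouse had more than 8 counts, and 17 mice, all Pcy/CD1, reached 10. The fitted log2 fold change was 2.01 ± 0.43 (adjusted p = 1.32e-04, edgeR), in a gene that entered the list through the Pcy/CD1 mice. Itga10, a collagen receptor known from cartilage, read 1.42, 2.02, 2.13, 1.69 and 1.87 CPM in WT and 2.29 through 3.20 to 4.55 in PBS, with no overlap, and rose by 0.86 ± 0.18 (adjusted p = 1.19e-04). RGLS4326 mice ranged from 2.08 through 3.20 to 4.59. Itga1, the receptor of smooth muscle and capillaries for basement membrane collagen, was far more abundant and went the other way, at 61.4 ± 9.91 CPM in WT and 45.9 ± 3.85 in PBS (log2 fold change −0.42 ± 0.09, adjusted p = 1.21e-04). None of the 3 passed the adjusted p between treatments. The 5 fibroblast markers summed to 90.4 to 116 CPM in WT and 199 to 420 in PBS. Of these 5, 3 were called higher, where 24.6% of all genes were, and their part in these values was not tested.

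The untested Itga2 showed a pattern of its own. WT mice 1 to 5 read 0.059, 3.15, 0.532, 0.303 and 2.53 CPM, RGLS4326 mouse 9 read 2.40, and every other Pcy/CD1 mouse was at or under 0.108. The 3 mice with 10 or more counts were thus WT mice 2 and 5 and RGLS4326 mouse 9.

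The receptors that bind the RGD motif of fibronectin, vitronectin and latent TGF-beta split by subunit. Itgav, whose product pairs with Itgb3, Itgb5, Itgb6 or Itgb8, was the most abundant alpha chain in WT kidneys, at 265, 213, 235, 260 and 278 CPM. In PBS mice it ranged from 119 through 127 to 159 and in RGLS4326 mice from 110 through 140 to 198. No Pcy/CD1 mouse of either group reached the WT range, and the highest, at 198 CPM, was RGLS4326 mouse 9. Its log2 fold change was −0.94 ± 0.09 (adjusted p = 1.46e-09, edgeR) for PBS against WT, −0.82 ± 0.09 for RGLS4326 against WT (adjusted p = 3.15e-08) and 0.12 ± 0.07 between treatments (adjusted p = 0.187).

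Itga5, the fibronectin receptor chain, went up where Itgav went down. WT mice read 9.32, 8.55, 11, 8.35 and 9.27 CPM, PBS mice 13.9 through 20.5 to 24.6 and RGLS4326 mice 11.04 through 17.3 to 22.8, so neither Pcy/CD1 group overlapped WT. The log2 fold change was 1.09 ± 0.16 for PBS against WT (adjusted p = 4.35e-07, edgeR) and −0.25 ± 0.11 between treatments (adjusted p = 0.0839). Itga8, a nephronectin receptor needed for kidney development and made by mesangial cells, fell to 8.52 ± 3.35 CPM in PBS from 15.2 ± 1.66 in WT (log2 fold change −0.84 ± 0.23, adjusted p = 0.00158), with overlapping ranges, and RGLS4326 mouse 9 again gave the highest value of its group, 17.5 CPM. Itga2b, the platelet fibrinogen receptor chain, did not pass against WT (−0.14 ± 0.10, adjusted p = 0.193). Only 1 of the 6 platelet markers was abundant enough to be tested, Pf4, which rose from 0.479 ± 0.270 CPM in WT to 2.31 ± 0.591 in PBS (2.26 ± 0.32, adjusted p = 4.00e-07) and fell to 1.19 ± 0.437 in RGLS4326 (−0.96 ± 0.19 against PBS, adjusted p = 0.00563, edgeR). The other platelet markers, too scarce to test, showed no such rise. Ppbp averaged 0.251 CPM in WT and 0.259 in PBS, Gp5 0.215 and 0.121, and Gp6 0.178 and 0.00407. Gp9 averaged 0.0949 and 0.0689, and Gp1ba 0.0120 and 0.0105. The part of platelets in Itga2b and Itgb3 was not tested.

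Of the beta chains that pair with alpha v, Itgb8 changed the most. Integrin αvβ8 holds latent TGF-beta, and its gene lies on the minus strand of chromosome 12 (chr12:119158022-119238802). WT mice 1 to 5 read 54.7, 49.6, 59.8, 59.4 and 60.8 CPM. PBS mice ranged from 5.87 through 16.8 to 34.2, and RGLS4326 mice from 7.64 through 21.5 to 46.0. All 26 Pcy/CD1 mice lay below all 5 WT mice, the spread among Pcy/CD1 mice was wide, and RGLS4326 mouse 9 at 37.5 CPM was among the upper values. The log2 fold change was −1.77 ± 0.28 for PBS against WT (adjusted p = 2.29e-06, edgeR) and −1.30 ± 0.27 for RGLS4326 against WT (adjusted p = 1.71e-04). Between treatments it was 0.47 ± 0.23 (adjusted p = 0.130). Of the 26 fits that left out 1 PBS or RGLS4326 mouse, 1 passed, the fit without PBS mouse 4 (0.61, adjusted p = 0.0398). Across the 26 the log2 fold change ranged from 0.35 to 0.61 and the adjusted p reached 0.251 (edgeR).

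The other beta chains that pair with alpha v were higher in PBS than in WT. Itgb3, the vitronectin receptor chain of platelets and mesenchymal cells, read 1.65, 1.96, 1.36, 1.57 and 1.87 CPM in WT, 2.27 through 2.79 to 3.76 in PBS and 1.60 through 2.45 to 3.38 in RGLS4326, and rose by 0.76 ± 0.15 (adjusted p = 3.00e-05, edgeR). Itgb6, an epithelial chain whose product activates latent TGF-beta, rose by 0.53 ± 0.13 (adjusted p = 7.73e-04) from 93.5 ± 11.4 to 135 ± 11.4 CPM. Itgb5 lies on the plus strand of chromosome 16 and read 122, 112, 130, 123 and 123 CPM in WT, 142 through 170 to 209 in PBS and 123 through 146 to 190 in RGLS4326. Its PBS values all exceeded WT, by 0.45 ± 0.08 (adjusted p = 1.97e-05), while 13 of 14 RGLS4326 mice lay below the PBS median (−0.19 ± 0.06, adjusted p = 0.0374). As a share of these 4 beta chains per kb, Itgb8 made up 9.71% ± 0.316 in WT, 2.27% ± 1.08 in PBS and 3.45% ± 1.57 in RGLS4326.

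Proximal tubule markers moved alongside the subunits that fell. Of 6 such markers, 5 were called lower in PBS than in WT, where 17.8% of all genes were. Their sum ranged from 15199 to 16567 CPM in WT, 5050 to 9642 in PBS and 6545 to 14254 in RGLS4326. On adjusted p 2 of 6 were higher in RGLS4326 than in PBS, where 9.15% of all genes were. Their part in the falls of Itgav, Itgb8 and Itga8 was not tested.

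**Figure D2:**
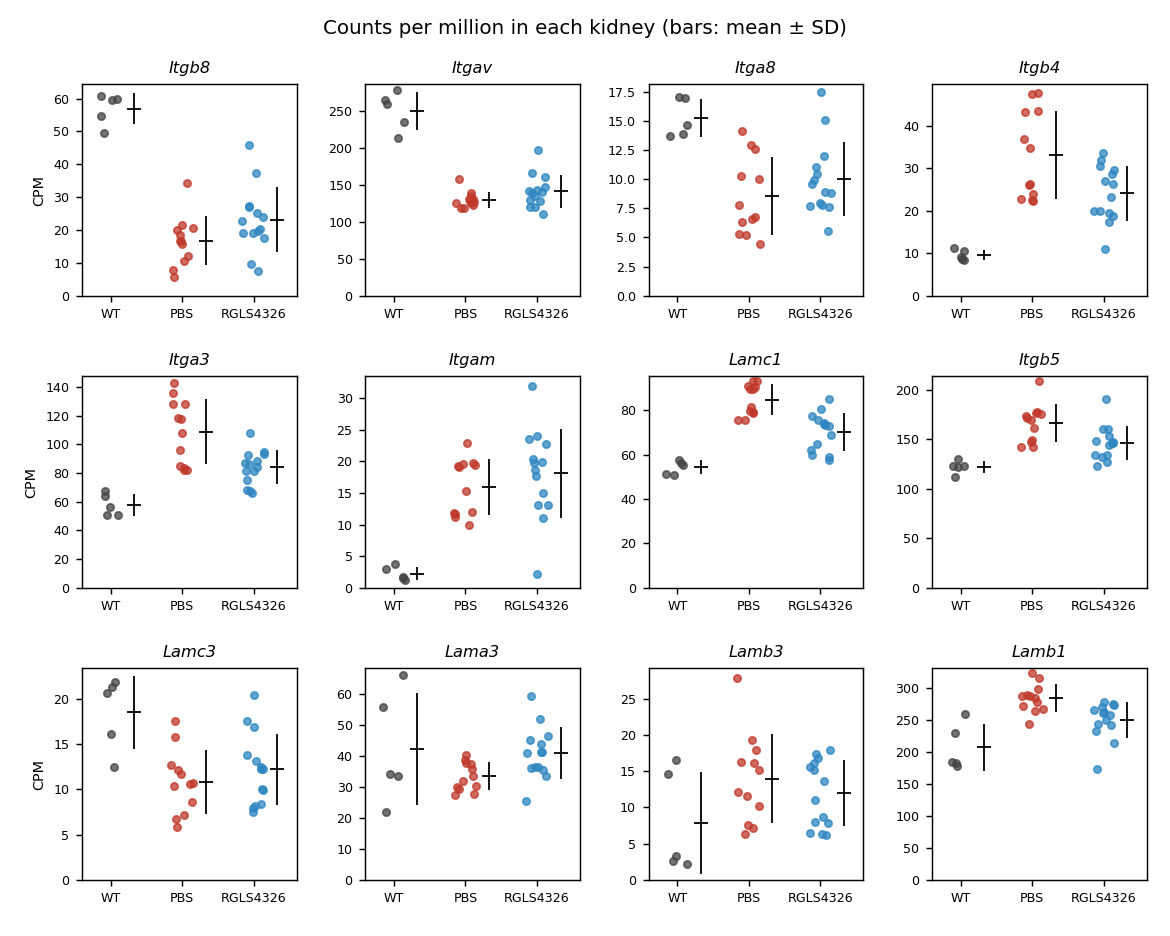
CPM of 12 subunits in each kidney, 1 point per mouse (WT n = 5, PBS n = 12, RGLS4326 n = 14), with the mean and SD as a bar beside the points; each y axis starts at 0. Itgb8 and Itgav lie below the WT range in all 26 Pcy/CD1 mice, and Itga3 and Lamc1 are shifted down in RGLS4326 against PBS with overlapping ranges.

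The 6 leukocyte integrin subunits with at least 10 counts in a WT mouse were all called higher in PBS than in WT, where 24.6% of all genes were, and neither they nor Itgad, the scarce seventh, passed edgeR's adjusted p between treatments. Itgam and Itgax encode alpha chains of myeloid cells, Itgad a related macrophage chain, Itgal the lymphocyte chain that binds Icam1, Itgb2 their shared beta chain, and Itgae and Itgb7 a receptor of epithelial-homing T cells. Itgam showed the largest log2 fold change of all members. It read 1.65, 1.31, 3.02, 3.69 and 1.63 CPM in WT, 9.97 through 17.2 to 22.9 in PBS and 2.15 through 19.2 to 31.9 in RGLS4326. PBS and WT did not overlap, and RGLS4326 mouse 9, at 2.15 CPM, was the only treated mouse within the WT range. The log2 fold change was 2.83 ± 0.38 for PBS against WT (adjusted p = 1.87e-07, edgeR) and 0.17 ± 0.22 between treatments (adjusted p = 0.578).

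Itgad was at the limit of detection in WT, at 0.118, 0, 0.118, 0.0605 and 0.120 CPM, against 0.186 through 0.452 to 0.847 in PBS and 0 through 0.430 to 0.602 in RGLS4326, where mouse 9 was at 0. No WT mouse had more than 2 counts, and it entered the list through 13 Pcy/CD1 mice with at least 10, so its fitted log2 fold change of 2.51 ± 0.51 (adjusted p = 7.12e-05, edgeR) is no independent sign of a rise. Itgam, Itgax and Itgad lie next to each other on chromosome 7 and are similar in sequence, so only reads that map to 1 of them were counted. Itgb7 rose by 1.58 ± 0.20, Itgax by 1.54 ± 0.27, Itgb2 by 1.35 ± 0.23, Itgal by 0.72 ± 0.22 and Itgae by 0.64 ± 0.18. Between treatments Itgal came nearest to the threshold, at 0.39 ± 0.15 (adjusted p = 0.0622), and without RGLS4326 mouse 9 it was 0.45 (adjusted p = 0.0466). Only 2 of the 26 fits that left out 1 PBS or RGLS4326 mouse passed for Itgal. Its log2 fold change in them ranged from 0.31 to 0.45, and the adjusted p reached 0.122 (edgeR). By DESeq2 with all mice Itgal was at 0.40 and passed (adjusted p = 0.0460).

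Itga4, which binds Vcam1 on activated endothelium, and Itga9, a receptor for tenascin, also rose. Itga4 read 3.24, 2.08, 3.61, 4.84 and 5.60 CPM in WT, 5.45 through 6.82 to 10.3 in PBS and 4.65 through 8.27 to 10.9 in RGLS4326, a log2 fold change of 0.92 ± 0.22 for PBS against WT (adjusted p = 4.04e-04, edgeR). Itga9 read 16.8, 11, 16.9, 16.3 and 13.1 CPM in WT, 15.4 through 23.7 to 30.6 in PBS and 15.7 through 20.7 to 28.4 in RGLS4326, a log2 fold change of 0.67 ± 0.15 (adjusted p = 1.68e-04). In both, the lowest PBS mice overlapped the highest WT mice.

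Leukocyte markers moved with these integrins. All 4 general leukocyte markers rose, their sum ranging from 28.9 to 50.8 CPM in WT, 129 to 214 in PBS and 40.3 to 256 in RGLS4326, with a median log2 fold change of −0.08 between treatments. Macrophage markers rose in 4 of 5 cases, from sums of 149 to 158 CPM in WT to 294 to 489 in PBS and 145 to 544 in RGLS4326. All 4 T cell markers rose too, from sums of 1.84 to 2.42 CPM to 7.56 to 13.7 in PBS, with 2.76 to 11.8 in RGLS4326 and 1 of 4 lower than in PBS, and so did all 4 B cell markers. Of the remaining lists, 2 of 5 podocyte markers rose, 3 of 4 smooth muscle markers rose and 1 fell, 1 of 5 endothelial markers fell and 1 of 2 thick ascending limb markers fell in PBS against WT. Over all genes 24.6% were called higher and 17.8% lower, so the endothelial share was near that of all genes. The part of these lists in the integrin values was not tested.

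Of the 11 laminin chains 4 rose and 1 fell in PBS against WT, beside 16 and 3 of the 25 integrin subunits, 14 and 3 of the 23 without Itgad and Itga11, and 24.6% and 17.8% of all genes, so that the share of laminin chains called was near the 42.4% of all genes. Lama5, the alpha chain of adult glomerular and tubular basement membrane, made up most of the laminin alpha transcripts per kb, at 67.7% ± 4.03 in WT, 75.4% ± 3.62 in PBS and 71.8% ± 3.79 in RGLS4326. Its level was higher in PBS on adjusted p alone (0.38 ± 0.09, adjusted p = 6.12e-04, edgeR). Lama4, a chain of vessels and mesenchyme, was the only alpha chain called. It read 7.25, 5.29, 6.86, 6.66 and 6.50 CPM in WT, 7.28 through 10.3 to 15.7 in PBS and 7.29 through 9.70 to 13.9 in RGLS4326, and it rose by 0.75 ± 0.16 (adjusted p = 1.31e-04). Every Pcy/CD1 mouse lay above the WT range, though the lowest, at 7.28 CPM, lay next to the highest WT mouse at 7.25. Lama1, the chain of early tubular basement membrane, was lower on adjusted p alone (−0.24 ± 0.08, adjusted p = 0.0106), a call lost with upper-quartile scaling (−0.12, adjusted p = 0.175). Lama2, known from muscle and mesangium, did not pass in edgeR (−0.28 ± 0.19, adjusted p = 0.186).

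Lama3 and Lamb3 encode chains of the laminin that anchors hemidesmosomes. Lamb3 gave 2.65, 16.5, 3.25, 2.24 and 14.6 CPM in the WT mice, with 6.38 through 13.7 to 27.9 in PBS and 6.23 through 12.4 to 17.9 in RGLS4326. WT mice 2 and 5 thus lay inside the Pcy/CD1 range and the other 3 below it. The log2 fold change of 0.84 ± 0.40 for PBS against WT missed the adjusted p (0.0583, edgeR), and it was 1.31 without WT mouse 2 (adjusted p = 0.00798) and 1.19 without WT mouse 5 (adjusted p = 0.0167). With all mice it passed both thresholds by DESeq2 (0.84, adjusted p = 0.0374), with upper-quartile scaling (0.96, adjusted p = 0.0326) and when genes averaging under 1 CPM were dropped (0.88, adjusted p = 0.0472). These WT mice also had the highest Itga2 values, and their 5 urothelial markers, a list chosen after these values were seen, summed to 27.0 and 24.6 CPM against 6.66 to 11.3 in the other 3. The part of these markers in Lamb3 was not tested. Urothelial sums ranged from 8.27 to 152 CPM in PBS and 31.6 to 120 in RGLS4326, with 5 of 5 markers higher in PBS than in WT. Among Pcy/CD1 mice the highest sums did not come with Itga2. PBS mice 5, 3 and 6 had sums of 152, 148 and 139 CPM, with Itga2 at 0, 0 and 0.0425 CPM. RGLS4326 mouse 9 had Itga2 at 2.40 CPM and a urothelial sum of 33.7.

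Lama3 gave 66.3, 55.9, 33.6, 34.4 and 22.1 CPM in WT, 27.5 through 32.8 to 40.6 in PBS and 25.6 through 41.2 to 59.6 in RGLS4326. The WT mice spread more widely than either Pcy/CD1 group and covered both. Its log2 fold change was −0.34 ± 0.17 for PBS against WT (adjusted p = 0.0621, edgeR), −0.12 without WT mouse 1 (adjusted p = 0.504) and −0.51 without WT mouse 5 (adjusted p = 0.00474). Between treatments it was 0.30 ± 0.12 (adjusted p = 0.0878).

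Other beta and gamma chains belong to the widely distributed laminins. Lamb2, the beta chain of the mature glomerular basement membrane, read 70.9, 70.8, 70.7, 64.7 and 76.5 CPM in WT, 84.5 through 107 to 115 in PBS and 73.9 through 90.5 to 109 in RGLS4326, with log2 fold changes of 0.54 ± 0.08 against WT (adjusted p = 6.97e-07, edgeR) and −0.18 ± 0.06 between treatments (adjusted p = 0.0352). Lamb1, its developmental and tubular counterpart, read 259, 183, 178, 183 and 229 CPM in WT, 243 through 285 to 323 in PBS and 174 through 259 to 278 in RGLS4326, where the lowest value was that of mouse 9. Its differences were 0.46 ± 0.09 (adjusted p = 3.81e-05) and −0.19 ± 0.06 (adjusted p = 0.0474). The share of Lamb1 among beta chains per kb differed by less than its SD between the groups, at 61.7% ± 4.40, 60.2% ± 3.05 and 60.0% ± 3.73.

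Lamc1, the gamma chain of most laminins, lies on the minus strand of chromosome 1 (chr1:153218922-153332786). It read 51.4, 50.7, 55.5, 56.4 and 57.8 CPM in WT, 75.7 through 85.5 to 93.2 in PBS and 57.7 through 73.2 to 85.3 in RGLS4326. PBS mice all lay above WT, all 14 RGLS4326 mice lay below the PBS median, and only mouse 9, at 57.7 CPM, fell within the WT range. Its log2 fold change was 0.64 ± 0.08 against WT (adjusted p = 4.44e-08, edgeR) and −0.27 ± 0.06 between treatments (adjusted p = 0.00668), the smallest treatment adjusted p of the members. Lamc3, a gamma chain of less certain role in kidney, fell, at 20.7, 12.5, 21.4, 21.9 and 16.1 CPM in WT, 5.81 through 10.7 to 17.6 in PBS and 7.49 through 12.3 to 20.4 in RGLS4326 (log2 fold change −0.78 ± 0.22, adjusted p = 0.00243).

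**Figure D3:**
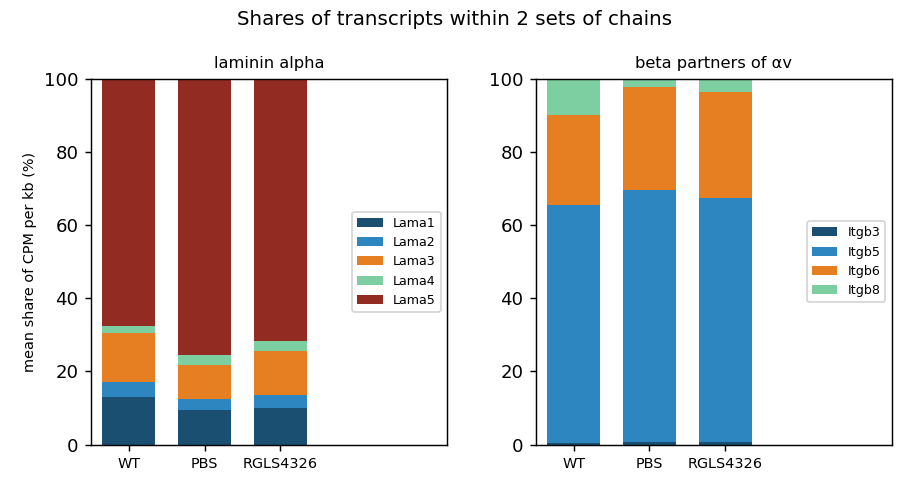
Mean share of each chain in the CPM per kb of its class (y axis, percent) in WT (n = 5), PBS (n = 12) and RGLS4326 (n = 14) kidneys, for laminin alpha chains and the beta partners of alpha v; the SDs of shares named in the text stand there. Lama5 holds the largest share of the alpha chains in every group, and Itgb8 shrinks from 9.71% to 2.27% and 3.45%.

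The 7 treatment differences were looked at within the index series, the 3 runs of sample-sheet numbers in the library names, which each hold 4 PBS mice, 4 or 5 RGLS4326 mice and 1 or 2 WT mice. All 7 log2 fold changes were negative in every series. For Lamc1 they were −0.12, −0.34 and −0.33, for Itga3 −0.17, −0.38 and −0.54, and for Itgb4 −0.25, −0.50 and −0.60. Itgb5 read −0.03, −0.37 and −0.14, Lamb1 −0.09, −0.25 and −0.21, and Lamb2 −0.09, −0.22 and −0.21. None of the 7 passed the adjusted p within a single series, where 4 PBS mice face 4 or 5 RGLS4326 mice.

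The 7 also differed in how far they depended on single mice. Lamc1 and Itga3 passed the adjusted p in all 26 fits that left out 1 PBS or RGLS4326 mouse, Itgb4 and Lamb2 in 15, Itgb5 in 14 and Lamb1 in 11. Without RGLS4326 mouse 9 the adjusted p was 0.0100 for Lamc1 and 0.0245 for Itga3, and it was 0.0547 to 0.0706 for Itgb4, Itgb5, Lamb1 and Lamb2, and Itgal passed. Fewer of the members therefore passed without that mouse, 4 against 7. The count was 3 without PBS mouse 2, 3, 5 or 9 or RGLS4326 mouse 6, 8, 10 or 13, 2 without PBS mouse 10, and 4 without PBS mouse 11 or RGLS4326 mouse 3. In fits of the PBS and RGLS4326 mice alone Itgb4 and Itgb5 missed the adjusted p (0.0578 and 0.0529) and Lama3 passed it at 0.29 (adjusted p = 0.0484), and with no filter on low counts Lamb1 missed it (0.0601).

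**Figure D4:**
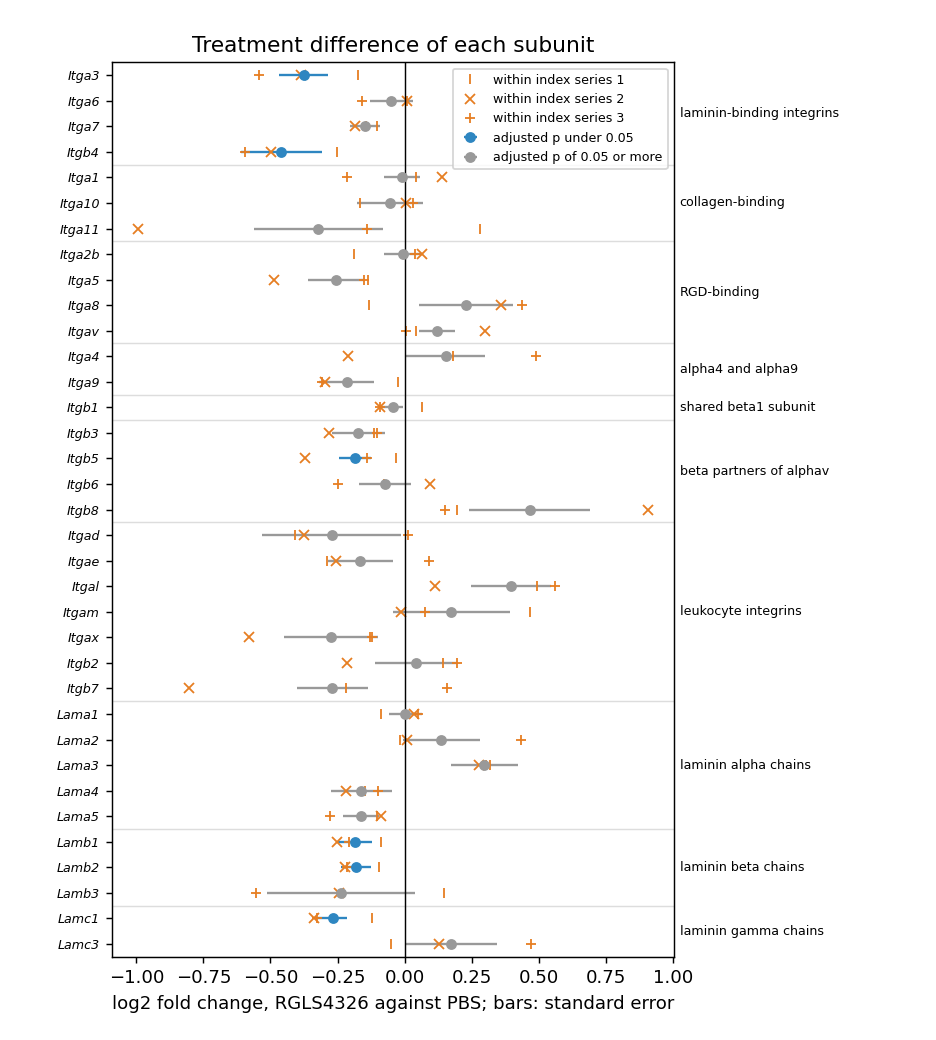
Log2 fold change of RGLS4326 against PBS for the subunits (x axis; circles with standard errors), blue where the adjusted p is under 0.05, with the value within each of the 3 index series in orange. The blue subunits lie between −0.46 and −0.18, and all their orange marks are to the left of 0, which their selection in the same mice favours.

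RGLS4326 was designed against miR-17, so the transcripts were searched for the sequence that pairs with its seed. The mature mouse miR-17 and 2 relatives that share the seed are shown with bases 2 to 8 in capitals, from RefSeq on GRCm38.p6.
mmu-miR-17-5p: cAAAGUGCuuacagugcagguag
mmu-miR-20a-5p: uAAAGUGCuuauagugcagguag
mmu-miR-93-5p: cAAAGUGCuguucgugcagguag
The match is GCACTTT on the transcript strand of the annotated 3′ untranslated region, with a following A in the longer form. It was present in 4 of 36 members (11.1%) and in 1934 of the 13832 tested genes with such a region (14%). The members were Itga4, Itgb8, Lamc1 and Lama3. A match is only a match of letters and was not tested for binding.

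The sites in Itga4, Itgb8 and Lamc1 are printed 5′ to 3′ on the transcript strand to show the letters that match the seed, with the match and any following A in capitals. All lie in the last exon (GRCm38), at chr2:79327747-79327753 on the plus strand for Itga4, at chr12:119162899-119162905 and chr12:119159173-119159179 on the minus strand for Itgb8, and at chr1:153220321-153220327 on the minus strand for Lamc1.
Itga4: attataaatatcGCACTTTAgctgatacac
Itgb8 first site: actagtgttgtaGCACTTTAttgtaatata
Itgb8 second site: ttagatttcacaGCACTTTgtaagtttgat
Lamc1: catctagttcctGCACTTTgtggctctgcc
Between RGLS4326 and PBS, Itgb8, the only member with a pair of sites, had a log2 fold change of 0.47 ± 0.23 and Itga4 of 0.15 ± 0.15, and Lama3 had 0.30 ± 0.12. None of these 3 passed the adjusted p (0.130, 0.459 and 0.0878, edgeR). Lamc1 was lower under RGLS4326 (−0.27 ± 0.06, adjusted p = 0.00668). The members with a match therefore did not share a direction.

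The genes that work with these subunits were read from 4 lists, to be set against the 24.6% of all genes that were called higher and 17.8% called lower between PBS and WT. Of 22 basement membrane partners 10 were called higher and 3 lower in PBS than in WT. Col17a1, a hemidesmosomal collagen, had under 10 counts in every WT mouse, at 0.371 ± 0.156 CPM in WT and 2.23 ± 1.31 in PBS, and without it 9 of 21 were called higher. Bcam, a laminin alpha-5 receptor, rose by 2.09 ± 0.24 from 118 ± 26.0 to 502 ± 148 CPM, and Col18a1, a basement membrane collagen, by 1.32 ± 0.15. Between treatments 8 of the 22 were lower on adjusted p, where 6.66% of all genes were, and 1, Bcam, was lower on both thresholds, where 1.22% were, at 336 ± 93.8 CPM in RGLS4326 (log2 fold change −0.58). The smallest treatment p-values were those of Dag1, the laminin receptor dystroglycan (−0.31 ± 0.06, adjusted p = 0.00356, edgeR), and Npnt, the Itga8 ligand nephronectin (−0.49 ± 0.10, adjusted p = 0.00870). Their median treatment log2 fold change was −0.18, beside −0.15 for the members.

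Of 15 matrix ligands 12 rose and none fell in PBS against WT, led by Col1a1 (3.37 ± 0.36) and Col3a1 (3.21 ± 0.33), the fibrillar collagens, and Tnc, the Itga9 ligand tenascin C (2.81 ± 0.41). Their treatment values were negative in 14 of 15, and only Thbs1, thrombospondin, passed the adjusted p (−0.41 ± 0.12, adjusted p = 0.0291, edgeR), with Tgfb2 next at −0.49 ± 0.20 (adjusted p = 0.0793). Of 8 counter-receptors of leukocyte integrins 5 were called higher in PBS than in WT, or 4 of 7 without Madcam1, the Itgb7 ligand, which had under 10 counts in every WT mouse. Among the 4 were Vcam1, the Itga4 ligand, at 3.23 ± 0.37, and Icam1, the Itgal and Itgam ligand, at 1.32 ± 0.19. Cdh1, the Itgae ligand E-cadherin, and F11r were lower in RGLS4326 than in PBS on adjusted p (−0.25 ± 0.04, adjusted p = 0.00312, and −0.15 ± 0.04, adjusted p = 0.0279). Of 22 adaptors inside the cell 4 rose and 2 fell, a smaller share than the 42.4% of all genes, led by Fermt3 (1.85 ± 0.23) and Parvg (1.70 ± 0.22), both of blood cells, and Actn1 (1.14 ± 0.15). Between treatments 1 of the 22 was higher on adjusted p and 2 were lower, where 9.15% and 6.66% of all genes were. Tns1, a tensin, was higher (0.22 ± 0.07, adjusted p = 0.0276, edgeR), and Parvg (−0.43 ± 0.14, adjusted p = 0.0386) and Src were lower.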

How the data were processed

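Kidney poly-A RNA was sequenced with stranded mRNA libraries as paired reads. Per the study's methods and the labels' processing notes, the authors trimmed reads with Trim Galore, aligned them to GRCm38 (mm10) with STAR and counted uniquely mapped reads per gene with HTSeq 0.6.1; the gene annotation and the strand setting were not given in the sources used here. The deposited values are raw counts per gene and mouse with no normalization. Rows that name no gene were left out; uniquely mapped reads on no gene made up 10.4% to 12.5% of those on a gene, on several or on none.

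Groups came from the labels. Genes kept by filterByExpr were scaled by TMM and fitted with edgeR 4.0.16 (R 4.3.3) to all 31 mice without covariates. Calls needed an adjusted p under 0.05 (Benjamini-Hochberg over all genes) and an absolute log2 fold change over 0.5, as in the study. SE is the log2 fold change over the square root of F, which is approximate. CPM used TMM-scaled totals. Lengths per kb, site positions and gene coordinates come from the GRCm38 annotation. Every tested member could be named; 1 member counted in the totals is not reported here. Per-mouse values are given for the 2 called members of each role with the largest PBS-against-WT changes, those past the adjusted p between treatments, and Lama3 and Lamb3; of partner lists, the 3 largest called disease changes and the 2 smallest treatment p-values were named. Where others are named with values, they were chosen after the values were seen. The members and lists were chosen with earlier results of these data known. On simulated counts for 15108 genes in RGLS4326 against PBS, 75% of 100 genes changed by 0.5 and 94% of 100 changed by 1 on the log2 scale passed the adjusted p. These changes were larger than those of the members past the adjusted p, and no outlying mouse was simulated. The shares therefore do not carry over to the members. Same-numbered mice of different groups are different animals. The closest libraries of a group, WT mice 3 and 4, still had a chi-square of 2.69 per gene between them, above the 1 that sampling alone gives, and count as separate mice. Alternatives covered scaling, filter, tool (DESeq2 1.42.0), mice in the fit, index series, a replicate block and leaving out each mouse; Python 3.11.15 served for tables and figures.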

Additional observations from a re-analysis of the deposited data

How the results depend on the processing

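Between PBS and WT, 24 members were called, and all alternatives stayed within 1.5 times of that, the fits leaving out 1 mouse giving 24 to 26. On adjusted p alone it was 32, with 30 to 34 when 1 mouse was left out and 20 within index series 2. Between RGLS4326 and PBS the 0 calls became 7 on adjusted p alone, and 0 to 2 when 1 mouse was left out: 2 without PBS mouse 4 (Itgb4 and Itgb8) and 1 without RGLS4326 mouse 5 (Itgb4). The 7 became 0, 0 and 0 within series 1, 2 and 3, which hold fewer mice, and 2 to 10 when 1 mouse was left out. Between RGLS4326 and WT the 19 calls became 31 on adjusted p alone and 3 within series 2, with 17 to 21 when 1 mouse was left out; the 31 on adjusted p alone became 3 within series 2, with 29 to 32. Series 3 holds 1 WT mouse and gave no WT test.

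With a replicate block, pairing mice by number, 1 member (Lamc1) passed between RGLS4326 and PBS. Deviations of same-numbered PBS and RGLS4326 mice correlated at a mean of −0.06 over 12 pairs, 4 of them over 0.1, and these are different animals, so no pairing was used.

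Lama1 changed sign within series 2, at 0.0031 for PBS and 0.037 for RGLS4326 against WT. The cause of these shifts was not tested. Counting each other member's value past the adjusted p under each setting, 613 kept and 88 lost that side of the threshold, and 1252 kept and 63 lost it when 1 mouse was left out. Upper-quartile scaling moved the median of all genes between PBS and WT by 0.12 and gave 25 higher and 4 lower members. Members at low counts, such as Itgad and Itga11, are limited by depth.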
